A study of Mus musculus with 5 samples.

Results

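The early growth response (EGR) zinc finger factors Egr1, Egr2 and Egr3, the orphan nuclear receptors Nr4a1, Nr4a2 and Nr4a3, and the immediate early response (IER) genes Ier2, Ier3, Ier5 and Ier5l were followed in RNA-seq of dermal group 2 innate lymphoid cells (dILC2s). The 10 genes were taken by their symbol from the deposited table of 47729 genes, and all 10 were among the 19011 genes with enough counts to be tested. The study asked how skin ILC2s differ when adaptive lymphocytes are missing. It compared 3 libraries from wild-type C57BL/6 mice (WT, pools 5, 6 and 13) with 2 libraries labelled Rag1-/- on the B6 background (pools 2 and 7), in which the loss of a recombinase subunit stops T and B cell development. All mice were female and 8 to 13 weeks old, and the cells were sequenced as sorted, with no stimulation in culture. Each library was a pool of animals. According to the methods, a WT pool held 10 mice and a pool labelled Rag1-/- held 9, while the labels count 30 WT and 16 Rag1-/- mice in all. For flow cytometry the methods identify dILC2s among viable CD45+ CD90hi cells by their lack of CD2 and CD3, and the gate of the sequenced cells is not stated separately. The labels give ILC2 as the cell type of the WT libraries but ILC3 for both libraries labelled Rag1-/-, whereas the paper calls all of them dILC2s. P-values here measure the spread between these few pools.

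Immediate early genes are transcribed within minutes of a signal, without new protein synthesis, and their mRNAs decay fast. EGR factors bind GC-rich DNA through zinc fingers, downstream of MAP kinase signalling and serum response factor, and in T cells EGR2 and EGR3 limit activation. NR4A receptors act without a known natural ligand, are induced by calcium, cyclic AMP and antigen receptor signals, and restrain effector programmes in lymphocytes. IER proteins are a loose group named for their rapid induction rather than for a shared fold. In fresh tissue such genes also respond to handling. For ear skin the methods give a digestion of 90 min at 37 °C, but they do not state it separately for the sequenced cells.

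The libraries differed in depth and make-up. They held 8050562 counts in pool 2 and 32939428 to 39477243 in the other 4. Rag1 itself had 4, 0 and 5 counts in WT pools 5, 6 and 13, 5 counts in pool 2 and 48 counts in pool 7. Per 1000000 counts of the library these were 0.103, 0 and 0.152 in WT and 0.621 and 1.23 in pools 2 and 7, so the level goes against the label of both pools, although the numbers are small and gene counts do not show which part of the gene the reads came from. Summed over 39 pan-leukocyte genes, the CPM level (counts scaled to library size, per 1000000 counts) adjusted by the trimmed mean of M-values (TMM) was 1335, 3111 and 3000 in WT pools 5, 6 and 13, and 10080 and 8966 in pools 2 and 7. The sum over 32 keratinocyte genes, led by Krt10, Krt14 and Krt5, ran the other way, at 53560, 44040 and 37430 CPM in WT and 9580 and 22640 CPM in the libraries labelled Rag1-/-. The ILC2 markers summed to 1908 to 3885 CPM in WT and 9669 and 7529 CPM in pools 2 and 7, and the ILC3 markers to 450 to 582 CPM and 1206 and 1352 CPM. Gata3, the factor that defines ILC2s, was at 196 to 321 CPM in WT and 554 and 383 CPM in pools 2 and 7, and both marker sums were above 0 in every library. By the rule for calls given below, 6 of 18 ILC2 markers were called higher, 7 of 13 ILC3 markers higher and 1 lower, and 5 of 13 T cell markers higher. Of the 39 leukocyte genes 28 were called higher too. Over all tested genes 3.57% were called higher and 2.16% lower. T cell markers summed to 78.7 to 172 CPM in WT and to 514 and 482 CPM in pools 2 and 7, with Cd8a and Cd8b1 too low to be tested. In such pooled RNA, fewer cells of a type and less RNA per cell cannot be told apart.

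Most of the 10 genes were short, a feature that the choice of symbols did not use. In the GENCODE M21 annotation of GRCm38 their median span was 5.29 kb, against 23.6 kb for 15253 tested protein-coding genes, and 7 of 10 (70%) were under 10 kb, against 25.3%. Ier2, Ier5 and Ier5l had a single exon, as did 3.02% of the protein-coding genes, and Ier3 and the EGR genes had 2 exons. The NR4A genes were the long members, with 8 exons each over 17.2 kb (Nr4a2), 20.5 kb (Nr4a1) and 41.3 kb (Nr4a3). The positions deposited with the counts, printed for each gene below, give shorter spans for Nr4a1 and Egr3. By those positions Nr4a1 is also under 10 kb. Immediate early genes are known for short transcription units that need little splicing.

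Promoter windows of 300 bases, 250 before and 50 after a transcription start, were held by RefSeq (GRCm38.p6) for 7 of the members, namely Egr2, all 3 NR4A genes, Ier3, Ier5 and Ier5l. They were searched on both strands for the CArG box that serum response factor binds, the cyclic AMP response element TGACGTCA and its core TGACG, the EGR motifs GCGTGGGCG and GCGGGGGCG, the NR4A monomer motif AAAGGTCA, and TATAAA. The core lies within the full element, which would count under both. The sequences below show where the searched motifs lie in Egr2 and the NR4A genes, with Ier5l as a window that held none. They are written 5′ to 3′ on the gene's strand up to the start site. Where the start of the gene in the deposited table falls earlier within the window, they stop there. The Egr2 stretch lies inside the deposited gene span, which begins at chr10:67535475. Searched motifs are in capitals (in reverse complement where they lie on the other strand). The sequences are Egr2 at chr10:67537619-67537868 (plus strand), Nr4a1 at chr15:101266596-101266845 (plus), Nr4a2 at chr2:57124004-57124253 (minus), Nr4a3 at chr4:48045055-48045152 (plus) and Ier5l at chr2:30474220-30474449 (minus).
Egr2: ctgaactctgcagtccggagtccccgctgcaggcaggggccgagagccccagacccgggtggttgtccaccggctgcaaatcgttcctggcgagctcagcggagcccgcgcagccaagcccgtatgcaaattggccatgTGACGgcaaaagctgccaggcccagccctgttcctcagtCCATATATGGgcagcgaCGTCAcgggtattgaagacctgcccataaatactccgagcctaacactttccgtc
Nr4a1: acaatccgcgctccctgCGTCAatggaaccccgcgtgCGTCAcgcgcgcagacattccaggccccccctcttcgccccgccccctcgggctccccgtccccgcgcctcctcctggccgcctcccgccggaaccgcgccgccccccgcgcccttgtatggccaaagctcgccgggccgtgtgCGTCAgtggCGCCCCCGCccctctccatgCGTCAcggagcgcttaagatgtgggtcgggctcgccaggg
Nr4a2: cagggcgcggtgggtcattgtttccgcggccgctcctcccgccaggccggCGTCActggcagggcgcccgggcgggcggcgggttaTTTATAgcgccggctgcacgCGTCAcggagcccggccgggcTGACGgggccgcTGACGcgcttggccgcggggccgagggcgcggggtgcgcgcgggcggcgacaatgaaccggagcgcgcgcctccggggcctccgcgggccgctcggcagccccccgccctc
Nr4a3: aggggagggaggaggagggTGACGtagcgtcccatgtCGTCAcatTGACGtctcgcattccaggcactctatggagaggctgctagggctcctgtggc
Ier5l: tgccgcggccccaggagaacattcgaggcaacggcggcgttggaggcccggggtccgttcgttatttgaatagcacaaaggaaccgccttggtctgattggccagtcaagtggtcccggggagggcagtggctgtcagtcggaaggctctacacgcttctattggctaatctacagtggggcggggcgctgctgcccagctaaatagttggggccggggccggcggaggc
Egr2 had 5 windows for its different starts, of which 4 held a CArG box. The windows that begin at chr10:67537619, 67537620 and 67537680 overlap and hold the same box. Counted by gene over all its windows, 1.81% of genes held a CArG box. The window printed here held a CArG box that began 72 bases before the start, a motif found in 1.63% of all 32851 windows, and the cyclic AMP core at 111 and 55 bases before it. Each of the 3 NR4A windows held that core at 4 places, which 0.231% of all windows reach (a number of places looked at after it was seen), while 20.8% held it at least once. For Nr4a1 these began 233, 213, 69 and 40 bases before the start, and for Nr4a3 231, 213, 205 and 147 bases before it, the last of them inside the first exon of the deposited gene model and not printed. GCGGGGGCG (2.91% of windows) was found in the Nr4a1 window, 60 bases before the start, and the TATA motif (13.6%) in the Nr4a2 window. The windows of Ier3, Ier5 and Ier5l held none of the searched motifs. TGACGTCA (1.79% of windows), GCGTGGGCG (0.612%) and AAAGGTCA (1.51%) were in none of the 7 genes' windows. These letter matches are a description and not evidence of binding.

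Egr1, Egr3 and Ier5l were the members that passed the test. Egr1 and Egr3 mRNA were lower in the libraries labelled Rag1-/- by 2.30-fold and 2.91-fold, and Ier5l was 4.51-fold higher, in fits of 3 WT against 2 pools. Egr2 lay below the WT range, and Nr4a3 and Ier5 above it, without passing the test, and Nr4a1, Nr4a2, Ier2 and Ier3 overlapped between the groups. In edgeR a call needed an adjusted p below 0.05 together with a log2 fold change of more than 1 in either direction. By that rule 1 of 10 members was higher, where 3.57% of all tested genes were, and 2 of 10 were lower, where 2.16% were. Ranges did not overlap for 3 of 10 members above WT and 3 of 10 below it, shares near those over all tested genes (23.1% and 22.4%). DESeq2 called the same 3 members (1 higher and 2 lower, against 6.85% and 7.16% of the genes it tested). Without WT pool 5, 6 or 13, or without pool 2, edgeR called 0 genes of the whole table (smallest adjusted p 0.0544, 0.0679, 0.109 and 0.0659, with 3521, 3735, 3874 and 5200 genes at an unadjusted p under 0.05). Whichever of the 5 libraries was left out, pool 7 included, the edgeR log2 fold changes stayed within narrow ranges. These were -1.54 to -0.96 for Egr1, -1.85 to -1.33 for Egr3, and 2.08 to 2.27 for Ier5l. DESeq2 called Egr3 and Ier5l whichever of the 5 libraries was left out, and Egr1 in all but the fit without pool 2, where its log2 fold change was -0.97. Without pool 7 both tools called 1 member higher and 4 lower, adding Egr2 (-1.38, edgeR adjusted p = 0.0149) and Ier3 (-1.40, edgeR adjusted p = 0.0143), in fits that called 4.07% of all tested genes higher and 7.98% lower in edgeR and 7.09% and 11.8% in DESeq2. The median log2 fold change was 0.18 over the members and 0.02 over all tested genes.

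**Figure D1:**
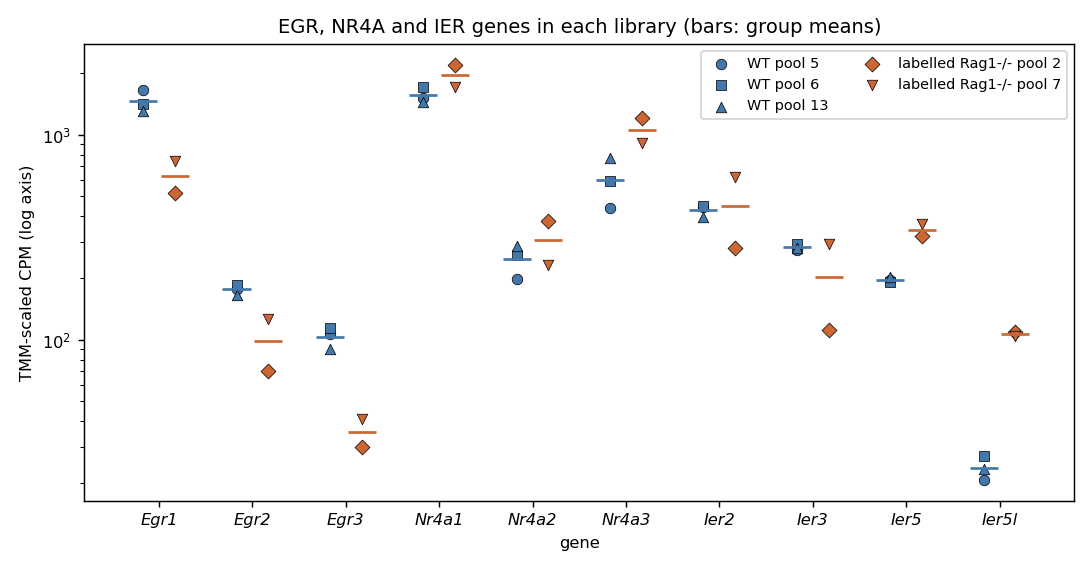
TMM-scaled CPM of the 10 genes (log axis) in the 3 WT libraries (blue) and the 2 libraries labelled Rag1-/- (orange), with a bar at each group mean. Egr1, Egr2 and Egr3 are below every WT point in both orange libraries, Ier5l is above by a wide gap, and Ier2 and Ier3 spread most between pools 2 and 7.

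Egr1 (ENSMUSG00000038418, chr18:34859823-34864984, GRCm38) encodes the EGR factor that responds to nearly every growth or stress signal. It was at 1646, 1417 and 1299 CPM in WT pools 5, 6 and 13 and at 521 and 741 CPM in pools 2 and 7. Both libraries labelled Rag1-/- were below the lowest WT library. The means were 1454 ± 177 CPM (SD, n = 3) and 631 ± 156 CPM (SD, n = 2), a log2 fold change of -1.20 (SE 0.27, edgeR adjusted p = 0.0469). The 95% interval of -1.83 to -0.57 reaches values under the fold threshold.

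Egr2 (ENSMUSG00000037868, chr10:67535475-67542188), known for its roles in myelinating glia and in T cell anergy, was at 177, 184 and 166 CPM in WT and 70.6 and 126 CPM in pools 2 and 7. The WT libraries were close together, while the pools labelled Rag1-/- differed 1.78-fold from each other. The log2 fold change of -0.84 (SE 0.27) did not pass the test (edgeR adjusted p = 0.111). DESeq2 gave -0.87 with an adjusted p of 0.0367, under the fold threshold.

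Egr3 (ENSMUSG00000033730, chr14:70077445-70080157), which acts alongside EGR2 in lymphocytes, showed the largest fall among the members. It was at 106, 114 and 89.8 CPM in WT pools 5, 6 and 13, and at 29.8 and 40.9 CPM in pools 2 and 7. The lowest WT library was above both pools labelled Rag1-/-, with means of 103 ± 12.4 CPM (SD, n = 3) and 35.3 ± 7.80 CPM (SD, n = 2). The log2 fold change was -1.54 (SE 0.23, edgeR adjusted p = 0.0306).

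Within the EGR family, Egr2 stood at 10.7 to 13.02 counts per 100 Egr1 counts in WT and 13.6 and 16.97 in pools 2 and 7, and Egr3 at 6.45, 8.04 and 6.91 and at 5.72 and 5.51. The ratio of Egr3 was lower in both libraries labelled Rag1-/- and that of Egr2 higher. Egr1 carried most of the family's counts in every library.

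Nr4a1 (ENSMUSG00000023034, chr15:101266846-101274792), which encodes NUR77, a reporter of antigen receptor signalling, was at 1511, 1717 and 1441 CPM in WT and 2196 and 1712 CPM in pools 2 and 7. Pool 7 was within the WT range. The log2 fold change was 0.33 (SE 0.24, 95% interval -0.24 to 0.90, edgeR adjusted p = 0.443), an interval that holds no change and also a rise of the size seen for Ier5.

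Nr4a2 (ENSMUSG00000026826, chr2:57106830-57124003), encoding NURR1, was at 197, 258 and 288 CPM in WT and 379 and 232 CPM in pools 2 and 7. Pool 2 was above every WT library and pool 7 was within the WT range. The log2 fold change of 0.30 (SE 0.28, edgeR adjusted p = 0.555) turned to -0.09 when pool 2 was left out.

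Nr4a3 (ENSMUSG00000028341, chr4:48045153-48086447), encoding NOR1, was at 438, 592 and 773 CPM in WT and 1206 and 908 CPM in pools 2 and 7. The ranges did not overlap, but the WT libraries themselves spread 1.77-fold, the widest WT spread among the members. The means were 601 ± 168 CPM (SD, n = 3) and 1057 ± 211 CPM (SD, n = 2), and the log2 fold change of 0.81 (SE 0.30, 95% interval 0.12 to 1.51) did not pass the test (edgeR adjusted p = 0.139, DESeq2 adjusted p = 0.0731).

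Ier5l (ENSMUSG00000089762, chr2:30471537-30474219), a single-exon relative of Ier5, was the least abundant member in WT and rose most. It was at 20.7, 26.9 and 23.3 CPM in WT and at 109 and 104 CPM in pools 2 and 7. The 2 pools labelled Rag1-/- were nearly equal and far above WT, with a mean of 107 ± 3.83 CPM (SD, n = 2) against 23.6 ± 3.15 CPM (SD, n = 3). The log2 fold change was 2.17 (SE 0.19, 95% interval 1.72 to 2.63, edgeR adjusted p = 0.0306).

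Ier5 (ENSMUSG00000056708, chr1:155096361-155099636), a regulator of heat shock factor activity, was at 197, 191 and 202 CPM in WT and 320 and 368 CPM in pools 2 and 7. It had the tightest WT values of all members, spread over 1.06-fold, and both pools labelled Rag1-/- were above them. The log2 fold change of 0.81 (SE 0.19, 95% interval 0.37 to 1.25) missed the threshold narrowly in edgeR (adjusted p = 0.0505). DESeq2 gave 0.77 with an adjusted p of 0.0048, still under the fold threshold. Ier5l stood at 10.5, 14.1 and 11.5 counts per 100 Ier5 counts in WT and at 34.1 and 28.2 in pools 2 and 7, so the ratio between the related genes moved too.

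Ier2 (ENSMUSG00000053560, chr8:84661331-84662852) and Ier3 (ENSMUSG00000003541, chr17:35821684-35822923), which encode a nuclear growth-response protein and a regulator of cell survival, were the members on which the pools labelled Rag1-/- disagreed most. Ier2 was at 445, 449 and 398 CPM in WT, 280 CPM in pool 2 and 620 CPM in pool 7. Ier3 was at 275, 293 and 282 CPM in WT, 112 CPM in pool 2 and 293 CPM in pool 7. Pool 7 exceeded pool 2 by 2.21-fold for Ier2 and 2.63-fold for Ier3, while the WT libraries agreed closely. The log2 fold changes were 0.06 (SE 0.34, edgeR adjusted p = 0.935) for Ier2 and -0.48 (SE 0.38, edgeR adjusted p = 0.481) for Ier3. Their direction turned with the pool that was left out, to -0.68 for Ier2 without pool 7 and to 0.06 for Ier3 without pool 2.

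The pools labelled Rag1-/- thus differed from each other in a way that followed the EGR and NR4A families but split the IER genes. Pool 7 was above pool 2 for all 3 EGR genes, by 1.37-fold (Egr3) to 1.78-fold (Egr2), and for Ier2, Ier3 and Ier5 (1.15-fold). Pool 2 was above pool 7 for all 3 NR4A genes, by 1.28-fold (Nr4a1), 1.33-fold (Nr4a3) and 1.63-fold (Nr4a2), and for Ier5l by 1.05-fold. Pool 2 was also the library with the fewest counts, though each member had enough there that the floor of 3 counts, 0.373 CPM, was far below its level.

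Counted together, the 10 genes took almost the same share of every library, 0.505% to 0.521% of counts in WT and 0.527% and 0.496% in pools 2 and 7, but the share was divided differently. EGR genes made up 38.5%, 32.7% and 31.3% of the members' counts in WT and 11.9% and 17.6% in pools 2 and 7. NR4A genes made up 42.8%, 49.0% and 50.4% in WT and 72.4% and 55.4%. Neither family's shares overlapped between the groups. The IER genes held 18.2% to 18.7% in WT and lay on either side of that in the pools labelled Rag1-/-, at 15.7% and 26.9%. Shares within a total are not independent of each other, and these were not tested.

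**Figure D2:**
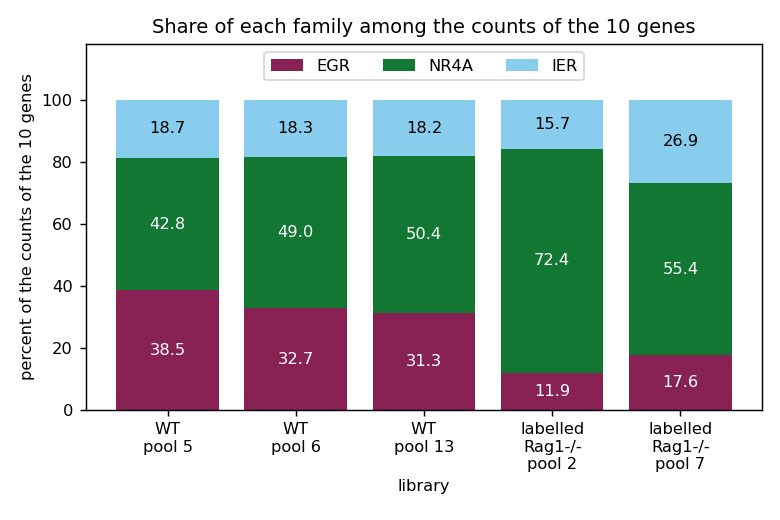
Stacked bars of the percent of the 10 genes' counts that fell on EGR, NR4A and IER genes in each library. The EGR part takes 31.3% to 38.5% in WT and 11.9% and 17.6% in the libraries labelled Rag1-/-, where the NR4A part is larger.

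A ratio within a library does not depend on how libraries were scaled. Egr1 stood at 109, 82.5 and 90.1 counts per 100 Nr4a1 counts in WT pools 5, 6 and 13 and at 23.7 and 43.3 in pools 2 and 7. Egr3 stood at 7.03, 6.64 and 6.23 per 100 Nr4a1 counts in WT and at 1.36 and 2.39, and Egr2 at 11.7, 10.7 and 11.5 and at 3.22 and 7.34. All 3 EGR genes were thus lower relative to Nr4a1 in both pools labelled Rag1-/-. Ier5l and Ier5 were higher relative to Nr4a1, at 1.37 to 1.61 and 4.97 and 6.06 for Ier5l and at 11.1 to 14.0 and 14.6 and 21.5 for Ier5. Nr4a3 overlapped on this scale, at 29.0, 34.5 and 53.7 per 100 Nr4a1 counts in WT and 54.9 and 53.0 in pools 2 and 7, with pool 7 just below the highest WT library.

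Levels can be compared between genes only per length. In TPM, where counts are divided by transcript length and set to the same total in each library, Nr4a1 was the highest member in all 5 libraries, at 1225 ± 121 TPM in WT (SD, n = 3) and 1463 ± 351 TPM in the libraries labelled Rag1-/- (SD, n = 2), and ranked between 49 and 106 among all genes of a library. Egr1 had rank 2 among the members in each WT library, at 631 ± 77.4 TPM, and rank 4 in pools 2 and 7, at 257 ± 46.7 TPM. Its rank among all genes went from 176 to 212 in WT to 743 in pool 2 and 594 in pool 7. Ier2 (551 ± 39.1 TPM) and Ier3 (487 ± 18.6 TPM) followed in WT, with Egr1 and Ier2 within their SDs of each other. Nr4a3 (204 ± 56.4 TPM), Egr3 (142 ± 17.9), Nr4a2 (135 ± 25.0), Ier5 (117 ± 2.49) and Egr2 (115 ± 6.80) came next, and from Egr3 to Egr2 neighbours did not differ beyond their spread. Ier5l was last in WT at 17.1 ± 2.38 TPM and reached 73.2 ± 7.48 TPM in the libraries labelled Rag1-/-, where Egr3, at 45.6 ± 7.10 TPM, was last.

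**Figure D3:**
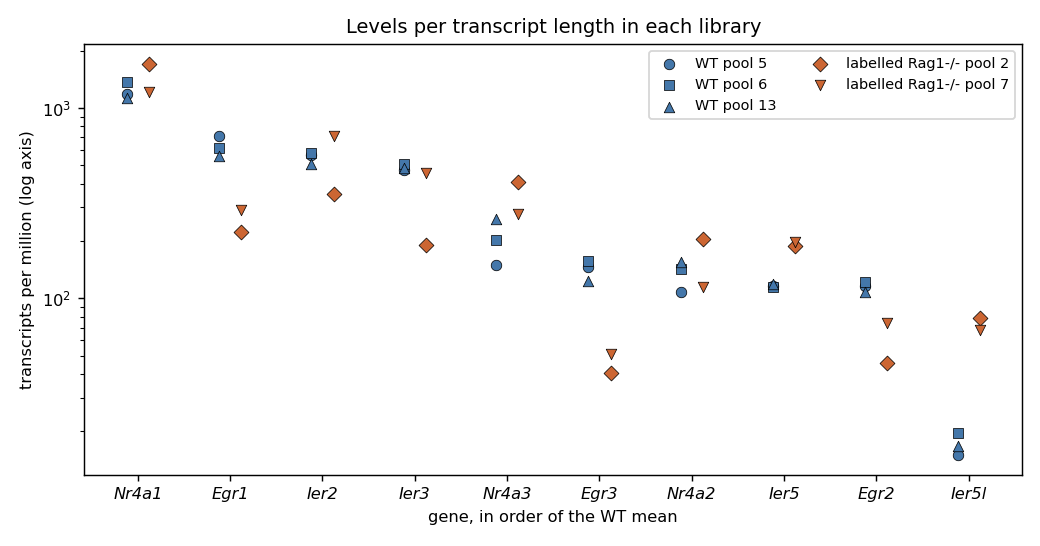
TPM of the 10 genes (log axis), ordered by their WT mean, with WT libraries in blue and libraries labelled Rag1-/- in orange. Nr4a1 leads in all 5 libraries, and Ier5l is the lowest gene in WT while Egr3 is the lowest in pools 2 and 7.

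The choice of scaling decided the direction of several members. When the libraries were scaled to equal levels of the 39 leukocyte genes instead of by TMM, the median of all tested genes moved to a log2 fold change of -2.19, with 71.9% of them called lower and 0.0842% called higher. Ier5l then stood at 0.01 (edgeR adjusted p = 0.993), so that its level per leukocyte signal did not differ detectably, and 0 members were called higher. Egr1 was at -3.48, Egr2 at -3.05 and Egr3 at -3.77 on that scale, and 7 of 10 members were called lower, a share near that of all genes (the EGR genes, Nr4a1, Nr4a2, Ier2 and Ier3). Nr4a1 changed direction to -1.89, Nr4a3 to -1.29, Nr4a2 to -1.84, Ier2 to -2.16 and Ier5 to -1.41.

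**Figure D4:**
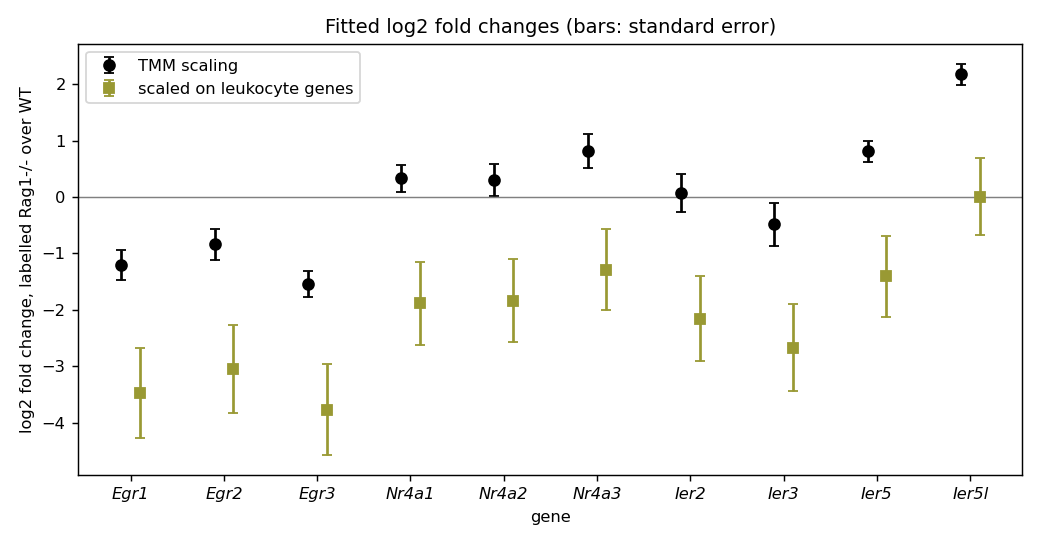
Fitted log2 fold changes of the libraries labelled Rag1-/- over WT for each member, with standard errors as bars, under TMM (black circles) and under scaling on leukocyte genes (olive squares). The order of the members is alike, but Ier5l moves from 2.17 to 0.01 and Nr4a1 from 0.33 to -1.89.

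Some members followed the marker sums from library to library. Egr1 ran from highest to lowest in the order WT pools 5, 6 and 13, pool 7 and pool 2, which was also the order of the keratinocyte sum, and Nr4a3 followed the exact reverse order. Ier5l put the 5 libraries in the same order as the leukocyte sum, lowest in WT pool 5, then WT pools 13 and 6, then pools 7 and 2. Of the keratinocyte genes 11 of 32 were called lower and 31 of 32 had ranges below WT, with a median log2 fold change of -1.50. Of the leukocyte genes 28 of 39 were called higher with a median of 1.93. Over all tested genes 2.16% were called lower and 3.57% higher. The part that skin epithelial RNA, or the share of leukocytes, had in the values of these members was not tested. For the handling of cells, 25 genes known to respond to tissue dissociation had 0 called higher and 1 called lower (Egr1). That list holds the members Egr1, Ier2 and Ier3. Its sums were 17350 to 21190 CPM in WT and 15760 and 16690 CPM in pools 2 and 7. Ranges lay above WT for 6 of the 25 genes and below it for 8, against 23.1% and 22.4% of all tested genes. The 12 heat shock genes of that list, led by Hsp90ab1, Hspa1b and Hspa8, had 0 called, with 4 ranges above WT and 2 below it. Their sums were 3817 to 4019 CPM in WT and 4859 and 4203 CPM in pools 2 and 7. The part that handling had in the result was not tested either.

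**Figure D5:**
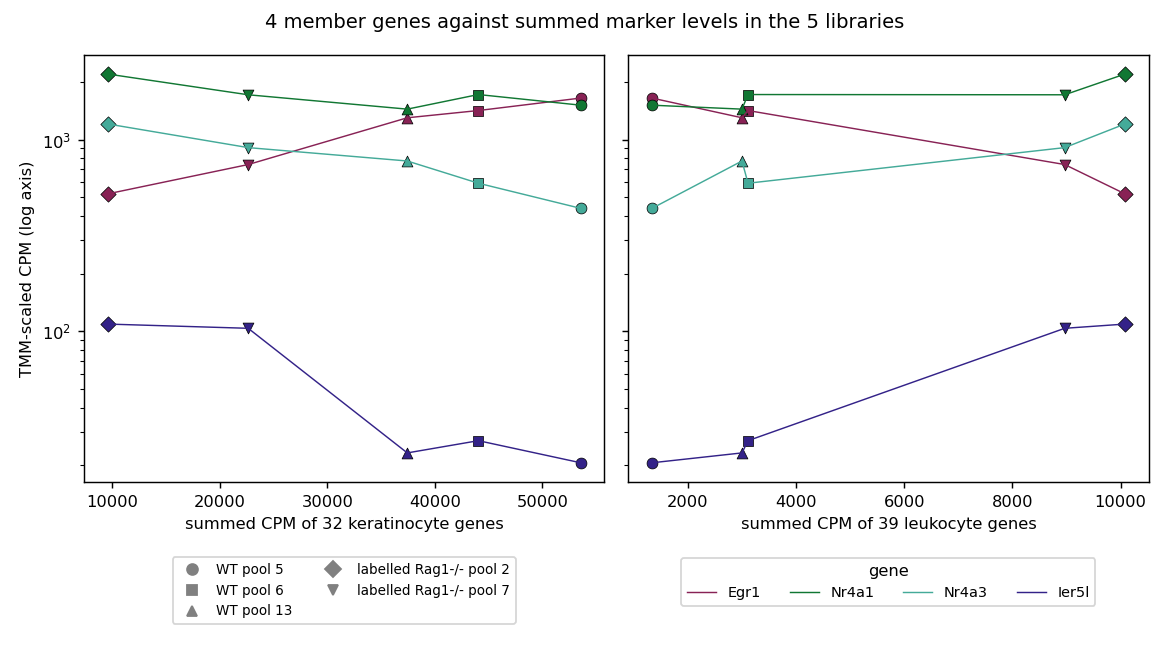
TMM-scaled CPM of Egr1, Nr4a1, Nr4a3 and Ier5l (log axis) against the summed CPM of 32 keratinocyte genes (left) and 39 leukocyte genes (right) in the 5 libraries, with points of a gene joined to guide the eye. Egr1 is higher and Nr4a3 lower where the keratinocyte sum is higher, while Ier5l is highest in pools 2 and 7, where the leukocyte sum is 10080 and 8966 CPM.

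Around the members, the remaining EGR gene, the NAB corepressors that bind EGR proteins and the RXR partners of NR4A receptors gave no call among the 5 genes tested (Wt1 was too low), with a median log2 fold change of -0.09. Egr4, with only 13 counts in pool 2, was at 8.42, 8.92 and 6.74 CPM in WT and 1.60 and 5.49 CPM in pools 2 and 7. Its log2 fold change was -1.11 (edgeR adjusted p = 0.209). Nab2, itself an EGR target that feeds back on EGR activity, was at 28.0, 35.4 and 38.8 CPM in WT and at 60.0 and 59.1 CPM in pools 2 and 7, a log2 fold change of 0.81 (edgeR adjusted p = 0.0631). Rxra was at 194 and 136 CPM (log2 fold change -0.51, edgeR adjusted p = 0.206), Nab1 at 159 and 149 CPM, and Rxrb at 56.7 and 60.5 CPM.

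Other immediate early genes split in both directions, with 2 higher and 2 lower of 24, where 3.57% and 2.16% of all tested genes were. Their median log2 fold change was -0.09. Myc, the growth regulator, fell from 243 ± 20.2 to 114 ± 10.4 CPM (log2 fold change -1.10, edgeR adjusted p = 0.0329) and Gadd45a, a stress sensor, from 86.6 to 43.1 CPM. Nfil3, a bZIP factor needed for innate lymphoid cell development, rose from 115 ± 15.7 to 245 ± 19.9 CPM (1.09, edgeR adjusted p = 0.0332), and Btg1, an antiproliferative gene of quiescent lymphocytes, from 617 ± 117 to 1340 ± 48.5 CPM (1.12, edgeR adjusted p = 0.0443). The abundant AP-1 genes did not pass the test. Fosb was at 2414 ± 456 and 1652 ± 374 CPM (-0.55, edgeR adjusted p = 0.275), Fos at 1972 ± 235 and 1310 ± 209 CPM (-0.59, edgeR adjusted p = 0.19), and Junb at 1268 ± 187 and 1973 ± 214 CPM (0.64, edgeR adjusted p = 0.155). Jun, at 1586 and 722 CPM, missed narrowly (-1.135, edgeR adjusted p = 0.0506), with both pools below WT. Fosl2, at 883.5 and 1795 CPM, missed in the other direction (1.02, edgeR adjusted p = 0.0579). Of the 24 genes, 8 had ranges above WT and 10 below it, against 23.1% and 22.4% of all tested genes.

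The feedback inhibitors had 3 higher and 1 lower of 16, where 3.57% and 2.16% of all tested genes were. Their median log2 fold change was 0.45. The MAP kinase phosphatase genes Dusp2 (22.3 to 58.7 CPM, log2 fold change 1.40), Dusp10 (35.8 to 105 CPM, 1.55) and Dusp4 (20.7 to 62.7 CPM, 1.59) rose, and Spred2, an inhibitor of RAS to MAP kinase signalling, fell from 66.1 to 30.0 CPM (-1.14). The abundant NF-kappa B inhibitors Tnfaip3 (2069 and 3042 CPM, 0.56, edgeR adjusted p = 0.255) and Nfkbia (1258 and 1236 CPM, -0.03) and the mRNA decay factor Zfp36 (1292 and 986 CPM, -0.39) did not pass the test.

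The upstream factors and kinases had 2 higher and 1 lower of 26 (3.57% and 2.16% of all tested genes) and a median of 0.17. Elk3, a ternary complex factor that works with serum response factor at CArG boxes such as that of Egr2, rose from 34.4 to 87.9 CPM (log2 fold change 1.35, edgeR adjusted p = 0.0306). Camk4, a calcium-dependent kinase of lymphocytes, rose from 23.7 to 89.1 CPM (1.91), and Mef2a, whose family drives Nr4a1 in T cells, fell from 306 to 151 CPM (-1.02). Crem, which encodes cyclic AMP response factors, was at 206 and 630 CPM (1.61, edgeR adjusted p = 0.089).

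Work on T cells has linked 20 genes to EGR2, EGR3 or NR4A factors. Here 4 of the 20 were higher and 0 lower (median 0.75), where 3.57% and 2.16% of all tested genes were. They were Pdcd1, the gene for the receptor PD-1 (2.95 to 25.2 CPM, log2 fold change 3.09), and the costimulatory receptor gene Tnfrsf9 (39.6 to 192 CPM, 2.27). The others were the inhibitory receptor gene Tigit (3.86 to 17.8 CPM, 2.21) and Tox, a nuclear factor of chronically stimulated T cells and of ILC development (17.4 to 66.5 CPM, 1.93). The cell cycle inhibitor Cdkn1a was at 508 and 514 CPM, Bcl6 at 152 and 112 CPM (-0.45), and the ubiquitin ligase gene Cblb at 70.6 and 92.9 CPM (0.39). With the libraries scaled on the leukocyte genes, edgeR called 0 of the 20 higher and 9 lower. On that scale 0.0842% of all tested genes were higher and 71.9% lower.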

How the data were processed

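Polyadenylated RNA of sorted skin ILC2s was made into unstranded TruSeq v2 libraries and read as single 50-base reads. Per the labels, the authors aligned reads to GRCm38 with STAR 2.5 and counted them per gene with featureCounts 1.5.0-p1, and deposited raw counts, with gene positions and lengths. The labels and the paper name different Ensembl releases. A deposited table of normalized counts was not used. The counts were tested here with edgeR 4.0.16 (filterByExpr, TMM, quasi-likelihood test, Benjamini-Hochberg over all tested genes) in R 4.3.3, 3 WT libraries against 2 with no covariate, and alternatively with DESeq2 1.42.0, other scalings, filters and left-out libraries. Both tools were first run on simulated counts without a difference in cell make-up. That run checked the code and not the calls made here. The exact permutation test of 3 against 2 libraries cannot go below p = 0.1. Library totals were 8050562 to 39477243 counts, and a floor of 3 counts covers counting error only. TPM used the deposited lengths, 1 for each gene (1416 bases for Egr3), so ranks between genes rest on those lengths. No member overlaps another gene of the table. Without strand, antisense reads would be counted too.

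The members and lists were chosen with earlier results of these data known, so no list is independent evidence. Named were all 10 members, of each pathway list the called genes (at most 4, by adjusted p) and at most 3 others of highest mean CPM, and of each marker or handling list at most 3 of highest mean CPM. Nab2, Egr4, Jun and Fosl2 were named beyond that rule, after their values were seen. Gata3, Cd8a, Cd8b1, Wt1 and Rag1 were named beyond it to check labels or to account for genes under the filter. Sums were also taken for fibroblast, endothelial, myeloid and mast cell genes, of which 0, 0, 1 and 0 were called higher and 0 lower. Values of some genes of these lists are not reported here.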

Additional observations from a re-analysis of the deposited data

How the results depend on the processing

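Apart from the leukocyte scaling, the members gave 126 values on the same side of the threshold and in the same direction, 13 that no longer passed it, 4 that newly did and 7 that turned. Scaled on leukocyte genes, edgeR called 0 members higher and 7 lower, and DESeq2, an alternative chosen after seeing the data, 0 and 9, where it called 0.0464% of all genes higher and 62.4% lower. Nr4a1 was then at -1.89, Nr4a2 at -1.84, Nr4a3 at -1.29, Ier2 at -2.16 and Ier5 at -1.41 on the log2 scale in both tools, because the scaling moved all genes. Under that scaling all calls in the pathway lists were lower in both tools, with 0 higher. Over all tested genes edgeR called 0.0842% higher and 71.9% lower. For corepressors and partners the calls numbered 4 and 5 in edgeR and DESeq2. Other immediate early genes had 19 and 19 of 24, and feedback inhibitors 11 and 12 of 16. Upstream factors had 21 and 23 of 26, and the lymphocyte genes 9 and 9 of 20. DESeq2 with its own scaling called 8 of the other immediate early genes and edgeR without a filter called 9, against 4. With 1 library left out, in edgeR and DESeq2 together, members called ranged from 0 to 1 (higher) and 0 to 4 (lower), and list calls from 0 to 1 (partners), 0 to 10 (immediate early), 0 to 5 (feedback), 0 to 4 (upstream) and 0 to 6 (lymphocyte). Nr4a2 turned to -0.088 (edgeR) and -0.090 (DESeq2) without pool 2, and Ier3 to 0.059 and 0.057. Ier2 turned to -0.68 in both tools without pool 7 and to -0.033 in DESeq2 without WT pool 13. The cause was not tested. Where a fit left 1 library labelled Rag1-/-, it was assumed to vary like the WT libraries. No paired analysis was possible because the groups share no replicate numbers. Pool 2 had the fewest counts (8050562). With 2 libraries labelled Rag1-/-, a member whose interval spans 0 may still differ.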
